A study of Mus musculus with 24 samples.

Results

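The 10 genes described here, out of 49315 genes counted, are markers of the position of hepatocytes along the liver lobule, measured in RNA of bile duct cells. They were chosen by name: Ass1, Cps1, Pck1, Hal, Sds and Gls2 mark periportal hepatocytes, and Glul, Oat, Slc1a2 and Lgr5 mark pericentral hepatocytes. Each was followed as counts per 1000000 counts of the library (CPM) in 24 libraries, and the summed CPM of the 6 periportal genes was divided by that of the 4 pericentral genes to give a periportal to pericentral ratio.

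Blood enters the liver lobule at the portal vein and leaves at the central vein, and hepatocytes along this path carry out different work. Periportal hepatocytes receive blood rich in oxygen and amino acids, and they favour gluconeogenesis, amino acid breakdown and urea synthesis. Hepatocytes next to the central vein respond to Wnt ligands and R-spondins made by endothelial cells, and they capture the remaining ammonia as glutamine. Bile ducts lie beside the portal vein, and their lining cells, the cholangiocytes, are not known for the urea cycle or gluconeogenesis. Glul, Oat and Slc1a2 are also used outside the liver: Glul and Slc1a2 in astrocytes of the brain, Glul in muscle, and Oat in many tissues as a mitochondrial enzyme.

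The study compared intrahepatic cholangiocytes, captured with an antibody and magnetic beads, of wild-type (WT) mice and of mice of the dnTGFBRII model of primary biliary cholangitis (dnTGFB), which carry a dominant-negative TGF-β receptor II. Mice of both genotypes were untreated or received secretin, a gut hormone that acts on bile duct cells, at 4 µg per kg per day from osmotic minipumps for 8 weeks. Males and females were kept apart, which gives 8 groups of 3 libraries: WT, WT secretin, dnTGFB and dnTGFB secretin in each sex. Each group is described as 1 pool of 6 to 8 mice whose RNA was sequenced in triplicate, so no p-value below measures how mice differ. The 3 libraries of some groups differed by far more than sampling noise, as given below. Whether they all come from the pool named was not tested, and the p-values measure only how libraries under 1 title differ. Tissue was taken from untreated WT mice aged 32 weeks and from treated mice aged 40 weeks, which got a second pump after 1 month. For the untreated dnTGFB mice no age, and for the transgene no promoter, is stated in the labels. Secretin and 8 weeks of age cannot be told apart in the comparison of WT secretin with WT. Because the age of untreated dnTGFB mice is not stated, a part of age in their comparisons with WT and with dnTGFB secretin cannot be told apart either. In 12 libraries the title and the genotype label disagree: treated WT libraries carry a transgene label, and dnTGFB libraries without secretin carry a wild-type one. The titles follow the series' design text and were used throughout.

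Gene positions are those of the deposited tables, which match GENCODE M21 on GRCm38. The periportal genes lie at these places: Ass1 (ENSMUSG00000076441) at chr2:31470207-31520672 (+), Cps1 (ENSMUSG00000025991) at chr1:67123026-67231259 (+), Pck1 (ENSMUSG00000027513) at chr2:173153048-173159273 (+), Hal (ENSMUSG00000020017) at chr10:93488768-93519304 (+), Sds (ENSMUSG00000029597) at chr5:120476526-120483932 (+) and Gls2 (ENSMUSG00000044005) at chr10:128194457-128210004 (+). The pericentral genes lie at these: Glul (ENSMUSG00000026473) at chr1:153899944-153909723 (+), Oat (ENSMUSG00000030934) at chr7:132557478-132576398 (-), Slc1a2 (ENSMUSG00000005089) at chr2:102658659-102790784 (+) and Lgr5 (ENSMUSG00000020140) at chr10:115450311-115587780 (-). In that annotation the exons of Sds, Gls2, Glul and Slc1a2 overlap genes on the opposite strand.

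Several libraries did not match their group. After thinning to 1400000 counts, 10 of 12 male and 6 of 12 female libraries had their nearest neighbour, by a chi-square per gene, inside their own group. Male WT library 1 was nearest to male dnTGFB library 2, at 7.23 against 39.96 to its own group. Male dnTGFB library 3 held 1429218 counts, against 15225605 to 30203330 in the other male libraries and 6483182 to 104003184 in females. It lay 78.54 from its own group, with a summed level of 10 neuron genes of 6929 CPM and of 10 heart muscle genes of 14637 CPM. Among females, libraries 2 and 3 of WT secretin and 1 and 2 of dnTGFB were rich in heart RNA: the heart muscle genes summed to 47917 to 56438 CPM, and the Y-linked Ddx3y lay at 46.8 to 64.3 CPM. The remaining 8 female libraries held no more than 6.02 CPM of it. Against their label, too, the 3 male WT secretin libraries contained Xist (34.0 to 42.4 CPM), which did not exceed 5.74 CPM in the other 9 male libraries. Female WT library 2 and female dnTGFB secretin library 1 differed by 1.17 per gene, and female WT secretin library 1 and female dnTGFB secretin library 3 by 1.45, where 1 is sampling noise. The 10 biliary markers were detected in all libraries except for 1 marker in male dnTGFB library 3. Their summed level was below that of 20 core hepatocyte genes such as Alb in all 24 libraries, which held 531 to 28950 CPM of the latter. Mitochondrial transcripts took 55.07%, 55.03% and 11.44% of counts in male dnTGFB, 42.75%, 9.73% and 9.75% in male WT, and 5.31% to 5.66% in male dnTGFB secretin. CPM of the library total move with that share. Fold changes below were therefore scaled by TMM in edgeR, and the ratio of both zones is free of scaling.

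To show what the genes' upstream sequence holds, the 300 bases around the RefSeq start (250 before and 50 after) were read for members found in the RefSeq promoter table of build GRCm38.p6, which were 6 of 10: Ass1, Pck1, Hal, Glul, Oat and Slc1a2. Cps1, Sds, Gls2 and Lgr5 were not found. The sequences of 3 periportal genes whose levels varied together and of Glul, which did not follow them, are given 5′ to 3′ on the gene's strand, with motif matches in capitals. They lie at chr2:31470020-31470319 (Ass1, plus strand), chr2:173152823-173153122 (Pck1, plus strand), chr10:93488518-93488817 (Hal, plus strand) and chr1:153899679-153899978 (Glul, plus strand).
Ass1: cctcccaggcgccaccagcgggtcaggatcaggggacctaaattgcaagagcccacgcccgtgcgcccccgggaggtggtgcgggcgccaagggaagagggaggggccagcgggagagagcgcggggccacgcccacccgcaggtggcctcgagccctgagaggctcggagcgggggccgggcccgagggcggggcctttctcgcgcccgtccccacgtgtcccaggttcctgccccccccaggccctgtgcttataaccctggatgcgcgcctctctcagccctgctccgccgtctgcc
Pck1: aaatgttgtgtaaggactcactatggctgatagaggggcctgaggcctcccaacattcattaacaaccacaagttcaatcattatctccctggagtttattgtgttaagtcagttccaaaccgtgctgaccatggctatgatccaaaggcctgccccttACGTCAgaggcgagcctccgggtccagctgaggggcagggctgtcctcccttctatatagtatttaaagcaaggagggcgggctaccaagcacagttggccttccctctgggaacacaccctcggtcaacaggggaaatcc
Hal: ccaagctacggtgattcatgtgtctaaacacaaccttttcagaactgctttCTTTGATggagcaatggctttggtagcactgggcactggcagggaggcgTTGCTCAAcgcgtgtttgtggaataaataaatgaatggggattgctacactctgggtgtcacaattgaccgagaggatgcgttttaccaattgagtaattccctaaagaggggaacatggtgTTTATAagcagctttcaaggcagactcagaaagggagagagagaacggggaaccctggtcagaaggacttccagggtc
Glul: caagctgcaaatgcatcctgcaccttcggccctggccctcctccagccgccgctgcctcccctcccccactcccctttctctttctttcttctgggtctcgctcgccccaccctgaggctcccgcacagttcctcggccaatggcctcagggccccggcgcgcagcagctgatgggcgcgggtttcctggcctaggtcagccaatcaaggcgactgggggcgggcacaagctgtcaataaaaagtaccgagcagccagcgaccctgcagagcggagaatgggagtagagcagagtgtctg

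On both strands 5 motifs were searched. The Slc1a2 window, chr2:102706188-102706487 on the plus strand, lies inside the gene as counted, which begins at 102658659. Its matches are thus not upstream of that start. The cyclic AMP response element core ACGTCA, present in 7.51% of 32851 promoters of this length, lay in Pck1 at position -91 from the start. The C/EBP motif TTGCNNAA, present in 10.8% of promoters, lay in Hal at -150 and in Slc1a2 at -158 on the minus strand. The TCF/LEF motif CTTTGAT, present in 3.73%, lay in Hal at -199 and in Slc1a2 at -207 on the minus strand, and the TATA motif TATAAA, present in 13.6%, lay in Hal at -28 on the minus strand, where it is printed as its reverse complement. The HNF4 motif CAAAGTCCA, present in 0.475%, was found in none of the 6, and Ass1, Glul and Oat held none of the 5. The periportal genes shown share no motif of these, and a match is a description of letters only.

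Per kilobase of exon, Glul had the highest median level of the 10 genes over 24 libraries, at 129 CPM per kb. Oat followed at 63.8, Ass1 at 54.7, Pck1 at 27.2, Sds at 12, Cps1 at 6.94, Gls2 at 4.45, Hal at 3.01, Slc1a2 at 0.794 and Lgr5 at 0.0364 CPM per kb. The genes also differed in how widely they ranged. From the lowest to the highest library Glul ranged 2.88-fold and Oat 2.24-fold, whereas the periportal genes ranged from 16.1-fold for Sds to 46.2-fold for Ass1. Slc1a2 ranged 86.6-fold, from female WT secretin library 2 to male dnTGFB library 3. Across the 24 libraries, which share pools and scaling, the 15 pairs of periportal genes had Pearson correlations of log2(CPM + 0.5) of 0.68 to 0.97 with a median of 0.91. The 6 pairs of pericentral genes had correlations of -0.55 to 0.46 with a median of -0.06, so the 4 genes did not vary as 1 zone in these libraries. Both extremes are pairs with Lgr5, which had 1 to 42 reads per library. Apart from Lgr5, Glul and Oat correlated at -0.13, Glul and Slc1a2 at 0.41 and Oat and Slc1a2 at -0.33. Pairs with Slc1a2 include its 1 high library, male dnTGFB library 3.

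**Figure D1:**
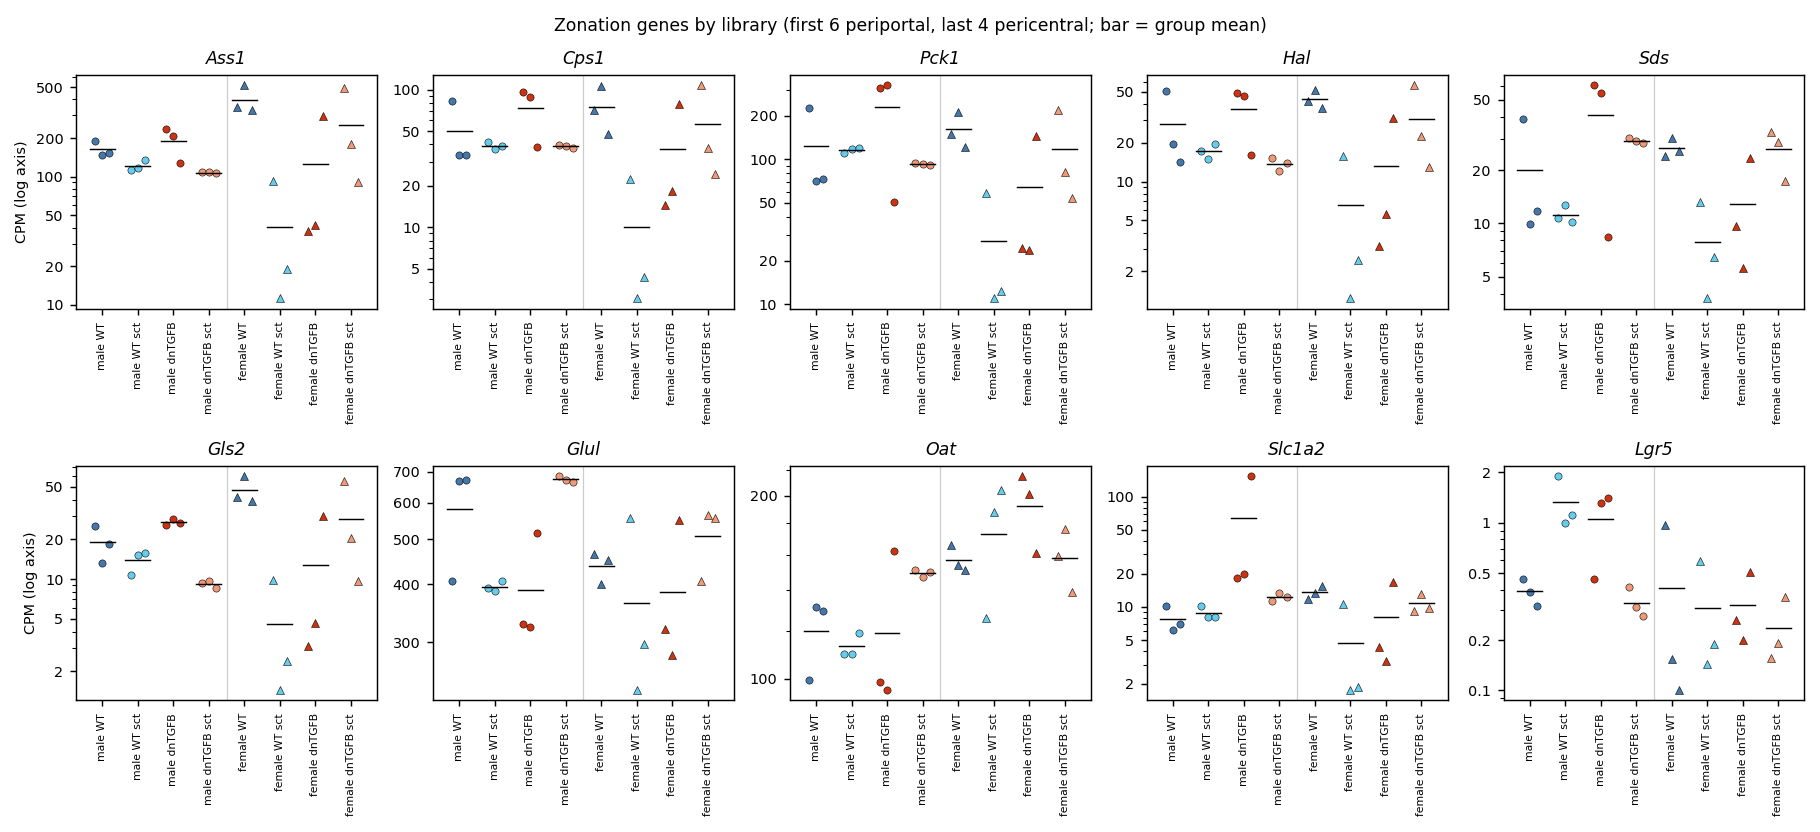
CPM of the library total for each of the 10 genes (log axis), with 1 point per library, circles for male and triangles for female libraries, and a bar at the mean of the 3 libraries of each group. The 6 periportal genes were low in the 4 female libraries rich in heart muscle genes, while Glul and Oat stay within a 3-fold range.

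Ass1 and Cps1 belong to the urea cycle: Cps1, carbamoyl phosphate synthetase, starts it in the mitochondrion, and Ass1, argininosuccinate synthetase, joins citrulline with aspartate in the cytosol. WT males held 190, 148 and 153 CPM of Ass1, secretin-treated WT males 112, 116 and 136, untreated dnTGFB males 236, 209 and 128 and secretin-treated dnTGFB males 108, 109 and 106. The female libraries held 350, 517 and 329 CPM of Ass1 in untreated WT, 92.2, 11.2 and 19 in treated WT, 37.5, 42.2 and 295 in untreated dnTGFB and 493, 181 and 91.1 in treated dnTGFB mice. The male libraries spanned 106 to 236 CPM, with dnTGFB secretin below dnTGFB and WT secretin below WT in every library. In females the 4 libraries rich in heart muscle genes were the lowest, and female WT library 2 and dnTGFB secretin library 1 the highest. In bulk RNA, fewer hepatocytes and less of an mRNA per hepatocyte cannot be told apart.

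Cps1 followed a like course at lower levels per kilobase. Among males, Cps1 read 96.3, 88.1 and 38.5 CPM in untreated dnTGFB mice and 39.5, 38.9 and 37.8 in treated ones, beside 83, 33.8 and 33.7 in untreated and 42, 36.9 and 38.7 in treated WT mice. Among females, the same order of groups gave 14.6, 18.4 and 78.7, then 108, 37.9 and 24.2, then 70.7, 107 and 47.9 and last 22.6, 3.03 and 4.31 CPM. Male WT library 1 and male dnTGFB libraries 1 and 2 stood above the other 9 male libraries, which held 33.7 to 42.0 CPM. By Pearson correlation of log2(CPM + 0.5) over the 24 libraries, among 12013 protein-coding genes with a mean of at least 5 CPM, the genes most like Ass1 were Hpd, Hgd and Fbp1 at 0.992, 0.991 and 0.986. Hpd and Hgd act in tyrosine breakdown and Fbp1 in gluconeogenesis. Those most like Cps1 were Baat, Qprt and Acat3 at 0.98, 0.979 and 0.975, of which Baat conjugates bile acids.

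Pck1, the cytosolic phosphoenolpyruvate carboxykinase, makes the committed step of gluconeogenesis. Untreated dnTGFB males held 309, 324 and 51.1 CPM of Pck1, treated dnTGFB males 94, 92.7 and 91.6, treated WT males 110, 118 and 119 and untreated WT males 227, 71.4 and 72.6. Untreated dnTGFB females held 24.5, 23.6 and 144 CPM, treated dnTGFB females 218, 81.3 and 54.1, treated WT females 58.2, 11 and 12.4 and untreated WT females 150, 213 and 121. Male dnTGFB libraries 1 and 2 held the highest values of the series and library 3 of the same group the lowest male value. Pck1 made up 43.2% of the summed periportal CPM in male dnTGFB library 2 and 19.0% in library 3, where Ass1 made up 27.8% and 47.7%. Closest to Pck1 were Cpb2, Abcc2 and Entpd8 at correlations of 0.969, 0.966 and 0.965.

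Hal, histidine ammonia lyase, starts histidine breakdown. Hal stood at 50.5, 19.7 and 14.2 CPM in the untreated WT males, 17.3, 15 and 19.5 in those given secretin, 48.6, 46.3 and 16.1 in the untreated dnTGFB males and 15.2, 12.1 and 13.9 in those given secretin. For females, the untreated WT libraries held 42.2, 52 and 37.7 CPM, the treated WT libraries 15.9, 1.23 and 2.47, the untreated dnTGFB libraries 3.14, 5.57 and 31 and the treated ones 56.3, 22.7 and 13.1. Closest to Hal were Amdhd1 at 0.99, Agxt at 0.981 and Uroc1 at 0.977, and Amdhd1 and Uroc1 encode later steps of the same histidine pathway. The same 3 male libraries stood out as for Cps1.

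Sds, serine dehydratase, turns serine into pyruvate and ammonia. The level of Sds was 30.3, 29.3 and 28.3 CPM in treated dnTGFB males, 60.4, 54.3 and 8.4 in their untreated counterparts, 10.7, 12.7 and 10.2 in treated WT males and 38.7, 9.86 and 11.8 in untreated WT males. The level was 32.9, 28.7 and 17.4 CPM in treated dnTGFB females, 9.67, 5.57 and 23.4 in their untreated counterparts, 13.2, 3.76 and 6.45 in treated WT females and 24.1, 30.4 and 25.7 in untreated WT females. Unlike the other periportal genes, its level in male dnTGFB secretin was above that in WT libraries 2 and 3 and in all WT secretin libraries. Closest to Sds were Wfdc21, Ang and Apcs, at 0.906, 0.9 and 0.898. The exons of Sds share 360 of 1694 bases with Plbd2 on the opposite strand, which lay at a median of 52.6 CPM, and because the labels do not state whether counting used strand, reads of both cannot be told apart there.

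Gls2 is the liver-type glutaminase, which releases ammonia from glutamine for the urea cycle. Counts of Gls2 came to 25.4, 13.2 and 18.4 CPM for untreated WT males, 25.8, 28.6 and 26.6 for untreated dnTGFB males, 10.8, 15.1 and 15.7 for treated WT males and 9.26, 9.59 and 8.58 for treated dnTGFB males. Counts in females came to 41.8, 59.8 and 39 CPM for untreated WT, 3.11, 4.68 and 30.2 for untreated dnTGFB, 9.83, 1.45 and 2.38 for treated WT and 54.9, 20.4 and 9.65 for treated dnTGFB mice. Gls2 was the periportal gene on which male dnTGFB library 3 matched its group: it held 26.6 CPM there, between 25.8 and 28.6 in libraries 1 and 2. Closest to Gls2 were Dmgdh at 0.981 and Reep6 and Aldh8a1 at 0.978.

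Glul, glutamine synthetase, is the enzyme that pericentral hepatocytes use to capture ammonia, and it was the most abundant of the 10 genes. Male WT libraries held 406, 669 and 672 CPM of Glul without secretin and 393, 386 and 407 with it, and male dnTGFB libraries 328, 324 and 515 without and 683, 671 and 666 with it. Female WT libraries held 464, 401 and 452 CPM without secretin and 557, 237 and 298 with it, and female dnTGFB libraries 320, 282 and 551 without and 407, 564 and 557 with it. The male libraries with the most hepatocyte RNA did not hold the most Glul: WT libraries 2 and 3 and all dnTGFB secretin libraries held 666 to 683 CPM beside 4376 to 7852 CPM of core hepatocyte genes, while WT secretin held 386 to 407 CPM beside 22154 to 23167. Per 1000 CPM of core hepatocyte genes, Glul ranged from 13.9 CPM in female WT library 2 to 446 in female WT secretin library 2. The genes most like Glul were Tceal8 at 0.971 and Hspa2 and Wdfy1 at 0.965, none of them a liver zonation gene of the lists used here.

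Oat, ornithine aminotransferase, turns ornithine into a precursor of glutamate. Without secretin, Oat stood at 99.4, 131 and 129 CPM in WT and 98.7, 95.9 and 162 in dnTGFB males, and with secretin at 110, 110 and 119 in WT and 151, 147 and 150 in dnTGFB males. Untreated females held 166, 154 and 151 CPM of Oat in WT and 215, 201 and 161 in dnTGFB, and treated females 126, 188 and 204 in WT and 159, 176 and 139 in dnTGFB. The 4 highest libraries, at 188 to 215 CPM, were those with heart muscle sums of 47917 to 56438 CPM, whose core hepatocyte sums of 531 to 2161 CPM were the lowest. Likeness to Oat was highest for Pno1, 2410015M20Rik and Bloc1s1 at 0.93, 0.924 and 0.923.

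Slc1a2 encodes the glutamate transporter GLT-1, which takes up glutamate in pericentral hepatocytes and in astrocytes. Males of the dnTGFB genotype held 18.3, 19.8 and 153 CPM of Slc1a2 untreated and 11.3, 13.3 and 12.3 treated, and WT males 10.3, 6.17 and 7.01 untreated and 10.1, 8.13 and 8.05 treated. Females of the dnTGFB genotype held 4.37, 3.26 and 16.7 CPM untreated and 9.28, 13.2 and 9.81 treated, and WT females 11.7, 13.4 and 15.6 untreated and 10.6, 1.77 and 1.88 treated. Male dnTGFB library 3 stood far above the rest, and there the neuron genes summed to 6929 CPM, against 78.8 to 543 in the other 23 libraries, and 1 of 8 astrocyte genes, Gfap, picked after its value was seen, lay at 122 CPM. The 8 astrocyte genes together did not set that library apart, at 672 CPM, beside 665 and 638 in male WT libraries 2 and 3 and 652 to 662 in male dnTGFB secretin. Slc1a2 took 18.4% of the summed pericentral CPM in that library and 4.5% or less elsewhere. The part of these cells in the Slc1a2 value was not tested. The genes most like Slc1a2 were Ipcef1, Hapln4 and Plcxd2, at 0.949, 0.939 and 0.938.

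Lgr5, the R-spondin receptor of hepatocytes beside the central vein, was close to the limit of counting. Untreated WT males gave 14, 8 and 7 reads, treated WT males 42, 18 and 19, untreated dnTGFB males 7, 25 and 2 and treated dnTGFB males 10, 7 and 7, which is 0.464, 0.389 and 0.319 CPM, then 1.89, 1 and 1.12, then 0.46, 1.32 and 1.4 and last 0.412, 0.315 and 0.277. Lgr5 in females, at 1 to 20 reads a library, came to 0.975, 0.154 and 0.101 CPM for untreated WT, 0.264, 0.2 and 0.509 for untreated dnTGFB, 0.591, 0.144 and 0.19 for treated WT and 0.157, 0.193 and 0.359 for treated dnTGFB mice. Its 2 reads in male dnTGFB library 3 and 1 read each in female WT libraries 2 and 3 are under the 3 that a count of 0 allows. The 5 highest libraries were the 3 of male WT secretin and male dnTGFB libraries 2 and 3. The genes most like it reached lower correlations, 0.753 for Enpp2, 0.748 for Egr3 and 0.685 for Fmnl1.

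**Figure D2:**
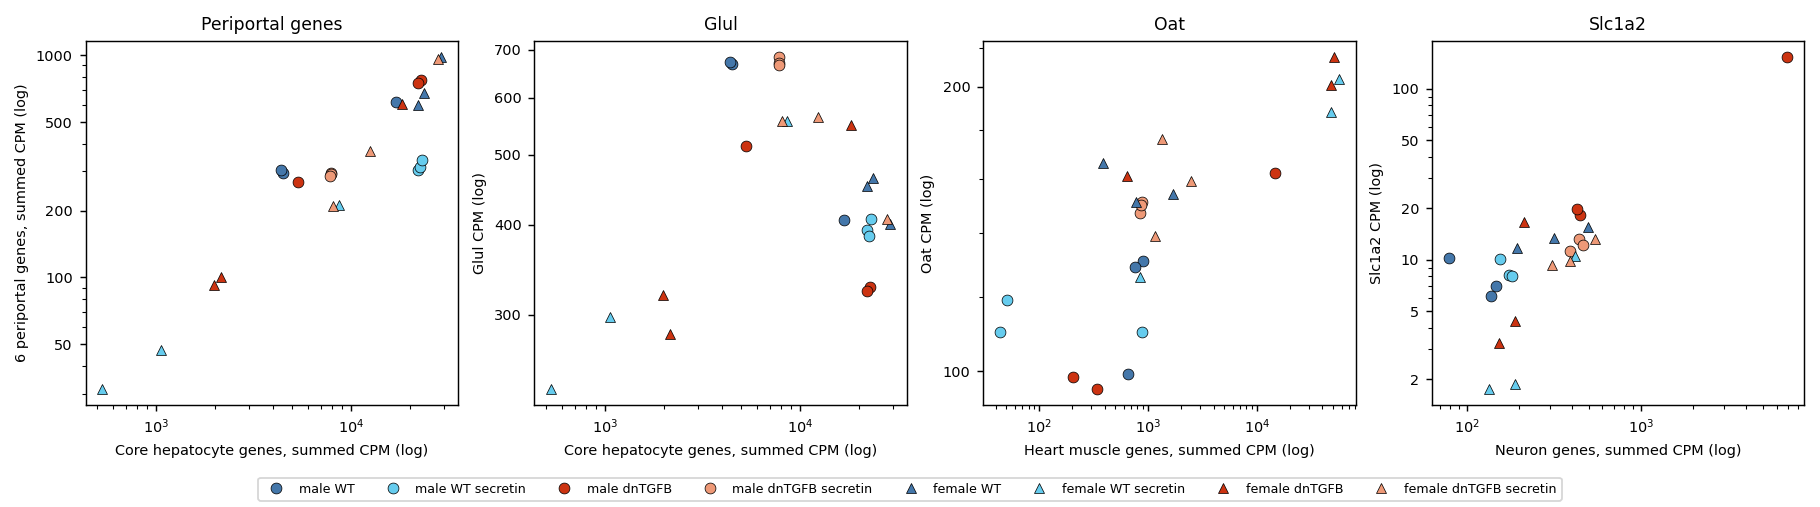
Levels per library on log axes: the summed CPM of the 6 periportal genes and the CPM of Glul against the summed CPM of 20 core hepatocyte genes, Oat against 10 heart muscle genes, and Slc1a2 against 10 neuron genes. The periportal sum mostly climbs with the hepatocyte sum, with breaks. The 3 male WT secretin libraries lie low for their hepatocyte sum, at 303 to 339 CPM. Male WT libraries 2 and 3 hold 296 and 304 CPM at hepatocyte sums of 4481 and 4376. Female WT secretin library 1 and female dnTGFB secretin library 3 hold 212 and 210 CPM at 8633 and 8091. Slc1a2 has 1 high point, male dnTGFB library 3.

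The periportal to pericentral ratio put these levels together for each library. For males it was 1.74, 1.7 and 0.323 in untreated and 0.35, 0.351 and 0.345 in treated dnTGFB mice, beside 1.19, 0.367 and 0.375 in untreated and 0.59, 0.621 and 0.633 in treated WT mice. For females it was 0.171, 0.206 and 0.826 in untreated and 1.67, 0.494 and 0.297 in treated dnTGFB mice, beside 1.06, 1.72 and 0.97 in untreated and 0.305, 0.0741 and 0.0933 in treated WT mice. On the log2 scale the group means, in falling order, were 0.27 ± 0.45 (SD, n = 3 throughout) in female WT, -0.02 ± 1.39 in male dnTGFB, -0.68 ± 1.28 in female dnTGFB secretin, -0.70 ± 0.05 in male WT secretin, -0.87 ± 0.97 in male WT, -1.52 ± 0.01 in male dnTGFB secretin, -1.70 ± 1.24 in female dnTGFB and -2.96 ± 1.10 in female WT secretin. Neighbours in this order overlapped in their libraries, except that all male dnTGFB secretin libraries lay just below the lowest male WT library. Male WT secretin, at 0.59 to 0.633, lay between male WT library 1 at 1.19 and libraries 2 and 3 at 0.367 and 0.375. Only female WT secretin library 1, at 0.305, lay among the female dnTGFB values. No p-value is given for a score over genes picked with results known.

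**Figure D3:**
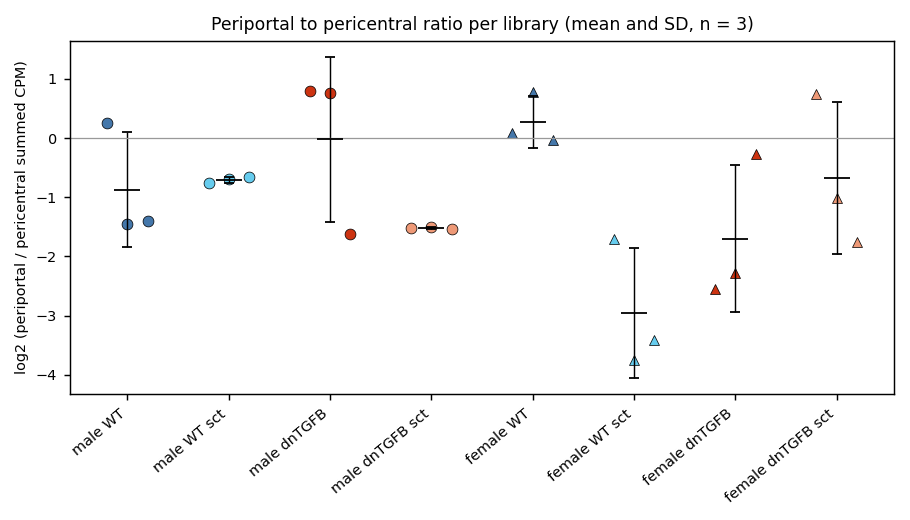
Log2 of the periportal to pericentral ratio (summed CPM of 6 over 4 genes) per library, with circles for male and triangles for female libraries and the mean and SD of the 3 libraries of each group. Male WT secretin and dnTGFB secretin form tight clusters, while male WT and male dnTGFB each hold 1 library apart from the other 2.

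The denominator of the ratio was mostly 1 gene, since Glul made up 55.5% to 83.1% of the summed pericentral CPM. Without Glul the group means of the log2 ratio were 1.58 in male WT, 1.37 in male WT secretin, 1.72 in male dnTGFB, 0.84 in male dnTGFB secretin, 2.11 in female WT, -1.36 in female WT secretin, -0.17 in female dnTGFB and 1.33 in female dnTGFB secretin. A wider ratio, of 16 other periportal genes such as Arg1 over 18 other pericentral genes such as Cyp2e1, moved less. It ranged from 0.423 to 2.42 over the 24 libraries, where the ratio of the 10 genes ranged from 0.0741 to 1.74. Treated WT males held a wider ratio of 1.2 to 1.24 and treated dnTGFB males one of 1.33 to 1.43, against 1.06 to 2.1 in untreated WT and 1.33 to 2.42 in untreated dnTGFB males, so treated dnTGFB males were not the lowest by this measure. Set against hepatocyte RNA, the periportal sum was lowest in male WT secretin, at 13.7 to 14.6 CPM per 1000 CPM of core hepatocyte genes, and held 24.6 to 69.4 in the other 21 libraries. The 16 other periportal genes were likewise lowest there, at 33.1 to 34.0 CPM per 1000, against 46.2 to 111 elsewhere.

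In males, Slc1a2 and Lgr5 were called higher in dnTGFB than in WT, near the share of calls among all genes. Slc1a2, the glutamate transporter, rose by a log2 fold change of 2.85 ± 0.54 (SE; adjusted p = 0.00704) and Lgr5, the R-spondin receptor, by 1.81 ± 0.54 (adjusted p = 0.0418) by the quasi-likelihood test of edgeR, Benjamini-Hochberg adjusted. These were 2 of 10 genes, both higher, where 17.0% of the 18777 genes tested in males were called, 8.55% higher and 8.46% lower. Scaled by library totals, with a median of all genes of -0.44 in place of 0.01, 19.4% of the called genes were higher in place of 50.3%. With only the 6 libraries compared in the fit, edgeR called 0% of 16879 genes, with 2860 at an unadjusted p under 0.05, and Slc1a2 stood at 2.96 ± 0.73 (adjusted p = 0.14), while Lgr5 did not pass the filter. DESeq2 called Slc1a2, Lgr5 and Oat higher. In CPM, Slc1a2 and Gls2 were higher in every dnTGFB library than in every WT library, as were 5.85% of the genes tested. Lgr5 overlapped between the groups, at 7, 25 and 2 reads in dnTGFB and 14, 8 and 7 in WT libraries. Its call was lost in 3 of 6 single omissions. The 6 periportal genes had positive estimates that missed the threshold, from 0.74 ± 0.42 for Ass1 to 1.54 ± 0.79 for Sds, and Glul and Oat were at -0.15 ± 0.18 and 0.37 ± 0.15.

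The calls of the periportal genes turned on male WT library 1 and male dnTGFB library 3. Without both, 9 of 10 genes were called higher in dnTGFB, where 47.4% of 19176 genes were called, 22.3% higher and 25.1% lower. Pck1 was then at 3.13 ± 0.06, Sds at 3.39 ± 0.12, Hal at 2.48 ± 0.14, Cps1 at 2.44 ± 0.08, Gls2 at 1.78 ± 0.17 and Ass1 at 1.56 ± 0.07 on the log2 scale, and Slc1a2 at 2.52 ± 0.17. Glul stayed at -0.05 ± 0.04. Core hepatocyte genes moved with the periportal genes: 0 of 20 were called by edgeR with all libraries (median 1.42, 1 at an unadjusted p under 0.05, 1 called by DESeq2) and 20 of 20 higher without both (median 3.31), while the median over all genes was 0.01 and -0.04. The part of hepatocyte content in the periportal difference was not tested. Without WT library 1 alone 7 genes were called, without dnTGFB library 3 alone 4, and without WT library 2, WT library 3 or dnTGFB library 2 alone Slc1a2 only.

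The list counts of male dnTGFB against WT stand beside 17.0% of all genes called, 8.55% higher and 8.46% lower. Among the lists of the same pathways, 1 of 8 urea cycle genes rose in male dnTGFB, Slc25a13, the mitochondrial aspartate-glutamate carrier, by 0.96 ± 0.25 (adjusted p = 0.0254 in edgeR). Of 6 gluconeogenesis genes, Pcx, pyruvate carboxylase, rose by 1.70 ± 0.29 (adjusted p = 0.00515) and Pck2, the mitochondrial counterpart of Pck1, fell by 0.76 ± 0.19 (adjusted p = 0.0233). Of 17 other pericentral genes tested, the dicarboxylate transporter Slc13a3 rose by 1.82 ± 0.55 (adjusted p = 0.0429; median of the list 0.70). None of 16 other periportal genes (median 1.09) and none of 10 genes of serine, histidine and glutamine breakdown (median 0.90) passed edgeR's test. At an unadjusted p under 0.05 there were 5 and 6 of them, and DESeq2 called 0 and 2. The lists overlap, and those of the pathways hold the zonation genes that belong to them. Of 4 Wnt ligands and R-spondins of liver endothelium, Rspo1 rose by 1.64 ± 0.50 (adjusted p = 0.0443). All 10 neuron markers rose (median 4.49), and 8 of 10 biliary markers fell (median -1.52). The neuron median includes dnTGFB library 3, where these genes summed to 6929 CPM. They summed to 446 and 430 CPM in dnTGFB libraries 1 and 2 and to 78.8, 137 and 148 in WT.

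Glul was called lower in WT secretin than in WT males, a call that several settings below did not keep. Glul fell by 0.75 ± 0.18 on the log2 scale (adjusted p = 0.0307, edgeR's quasi-likelihood test), from 406, 669 and 672 to 393, 386 and 407 CPM, and it was the only one of the 10 genes called. Over all genes, 6.22% were called, 3.55% higher and 2.67% lower. Scaled by library totals, with a median of all genes of 0.19 in place of 0, 75.7% of the called genes were higher in place of 57%, and Glul stood at -0.56 (adjusted p = 0.307 in edgeR). The groups overlapped in Glul because of WT library 1 at 406 CPM. Fitting with no filter, with the replicate block or without any 1 of the 6 libraries left none of the 10 genes called. In the single omissions the Glul estimate stayed between -0.77 and -0.73. Ass1 was lower and Lgr5 higher in every WT secretin library than in every WT library, with estimates of -0.73 ± 0.42 and 1.47 ± 0.51 that missed the threshold (adjusted p = 0.366 and 0.118 in edgeR). Of the genes tested, 32.9% did not overlap in CPM between these groups. With only the 6 libraries compared in the fit, Glul and Oat were called, both lower, with 28.3% of genes called.

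Without male WT library 1 and male dnTGFB library 3 this comparison gave 7 calls of 10, where 40.5% of genes were called, 19.9% higher and 20.6% lower. Glul at -0.76 ± 0.03, Ass1 at -0.31 ± 0.07 and Oat at -0.20 ± 0.05 were lower, and Pck1 at 0.68 ± 0.05, Cps1 at 0.22 ± 0.07, Slc1a2 at 0.42 ± 0.16 and Lgr5 at 1.92 ± 0.63 higher. The direction of Pck1, Cps1, Hal, Sds and Slc1a2 thus turned on those libraries, as their estimates with all libraries were -0.55, -0.77, -1.15, -1.31 and -0.17. Core hepatocyte genes stood at a median of 0.90 with all libraries, with none at an unadjusted p under 0.05 or called by DESeq2, and at 2.58 without both, all 20 higher.

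Wnt9b and Rspo1, signals made by liver endothelium, were higher in WT secretin males. Of 4 Wnt ligands and R-spondins, Wnt9b rose by 2.30 ± 0.43 (adjusted p = 0.0113) and Rspo1 by 2.81 ± 0.48 (adjusted p = 0.00783) in edgeR, against a median of 0 over all genes. Of all genes tested, 3.55% were called higher and 2.67% lower. Wnt9b lay at 22.4, 25.7 and 23.4 CPM in male WT and 138, 134 and 146 in WT secretin. Rspo3, the most abundant of the 4, stood at 1.33 ± 0.41 (adjusted p = 0.0806). Lgr5, a receptor of R-spondins, had the highest estimate of the 10 zonation genes, but it missed the threshold at 7 to 42 reads per library. A link between it and these signals was not tested. Of the other lists, 0 of 16 periportal, 0 of 17 pericentral, 0 of 8 urea cycle, 0 of 6 gluconeogenesis and 0 of 10 amino acid breakdown genes passed edgeR's test, with medians of -0.41, 0.46, -0.45, 0.01 and -0.82. At an unadjusted p under 0.05 there were 1, 4, 0, 1 and 1 of them, and DESeq2 called 1, 4, 0, 1 and 0.

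Secretin in dnTGFB males came with lower levels of 4 periportal and 2 pericentral genes. Ass1, Cps1, Hal and Gls2 of the periportal genes and Slc1a2 and Lgr5 of the pericentral genes fell, 6 of 10, where 22.6% of genes were called, 10.1% higher and 12.4% lower. The log2 fold changes were -2.45 ± 0.41 for Gls2 (adjusted p = 0.00373), -2.49 ± 0.69 for Hal (adjusted p = 0.0275), -1.95 ± 0.60 for Cps1 (adjusted p = 0.0399) and -1.79 ± 0.43 for Ass1 (adjusted p = 0.0186) in edgeR's quasi-likelihood test. Those of Slc1a2 and Lgr5 were -2.67 ± 0.54 (adjusted p = 0.00916) and -2.46 ± 0.55 (adjusted p = 0.0144). Pck1 at -2.38 ± 0.82 (adjusted p = 0.0581), Sds at -1.61 ± 0.79 (adjusted p = 0.158) and Oat at -0.41 ± 0.15 (adjusted p = 0.0718) missed the threshold. Glul stood at 0.04 ± 0.18 (adjusted p = 0.899). In CPM of the library total Glul was nevertheless higher in every dnTGFB secretin library than in every dnTGFB library, and scaled by library totals it stood at 0.79, where the median of all genes stood at 0.75 in place of -0.05 and 88.9% of the called genes were higher in place of 44.8%. Oat turned to 0.34 under that scaling. In CPM 6 of the 10 genes did not overlap between the groups, as 48.8% of the genes tested did not. With only the 6 libraries compared in the fit, Gls2 alone of the 10 was called, with 2.90% of genes called.

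Without male WT library 1 and male dnTGFB library 3, 9 of 10 genes fell, all but Glul at -0.08 ± 0.03 (adjusted p = 0.0525 in edgeR), where 46.6% of genes were called, 23.1% higher and 23.5% lower. Pck1 was then at -2.90 ± 0.05 and Sds at -2.09 ± 0.10. Leaving out any 1 dnTGFB secretin library left Gls2 and Slc1a2 as calls, and without dnTGFB library 2 Ass1, Gls2 and Slc1a2 were called. Core hepatocyte genes fell in 5 of 20 cases with all libraries (median -2.29), among them Tdo2 at -2.36 ± 0.42 and Apoa2 at -1.95 ± 0.44, and in 20 of 20 without both libraries (median -2.72). Biliary markers rose in 9 of 10 cases (median 2.35) and neuron markers fell in 10 of 10 (median -2.81), with all libraries and TMM scaling. In CPM the neuron genes summed to 446, 430 and 6929 in dnTGFB libraries 1, 2 and 3, beside 390, 440 and 466 in dnTGFB secretin. Only dnTGFB library 3 thus stood apart in CPM of neuron genes. The part of these contents in the fall of the zonation genes was not tested. The dnTGFB libraries stand in both this comparison and that with WT, so the opposite signs of both share data.

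Other genes of both zones were lower as well. Of 16 other periportal genes, 11 fell and none rose (median -2.05, against -0.05 over all genes). Of all genes tested, 12.4% were called lower and 10.1% higher. Arg1, arginase of the urea cycle, stood at -1.71 ± 0.48, Otc at -2.33 ± 0.41 and Etnppl at -2.21 ± 0.31, all called. Of 17 other pericentral genes tested, 7 fell and 1 rose (median -1.26). Cyp2e1, a cytochrome P450 of the pericentral zone, stood at -1.54 ± 0.36, Cyp2c29 at -1.84 ± 0.33 and Rgn at -1.67 ± 0.31, all called. The gene that rose was Znrf3, a ubiquitin ligase that restrains Wnt signalling, by 1.21 ± 0.26 (adjusted p = 0.012 in edgeR); it was named after its value was seen. Among 8 urea cycle genes 5 fell, with Ass1 and Cps1 among them, among 6 gluconeogenesis genes Pcx and Fbp1 fell, and among 10 amino acid breakdown genes 5 fell and 1 rose. Hal and the other 3 histidine breakdown genes of that list, Amdhd1, Uroc1 and Ftcd, all fell, the latter at -2.29 ± 0.56, -2.96 ± 0.79 and -2.67 ± 0.72. These histidine genes were set apart from the 10 listed after their values were seen. None of the 4 Wnt ligands and R-spondins passed edgeR's test (median 0.83), with 3 at an unadjusted p under 0.05 and 2 called by DESeq2.

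**Figure D4:**
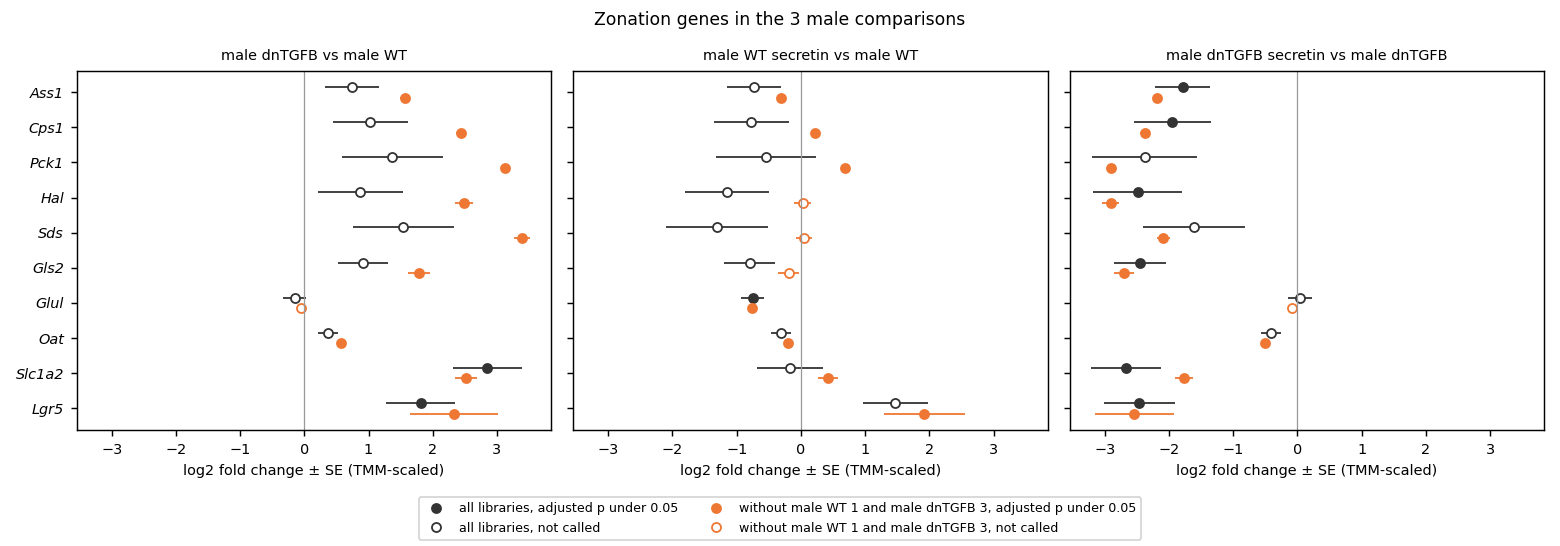
Log2 fold changes ± SE of the 10 genes in the 3 male comparisons, from the fit with all 12 libraries (black) and without male WT library 1 and male dnTGFB library 3 (orange); filled points have an adjusted p under 0.05. Glul lies near 0 in the outer panels in both fits, and the periportal genes move outward without these libraries in dnTGFB against WT.

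The difference between the secretin contrasts of both genotypes was tested as an interaction. In males it was negative for Slc1a2 at -2.50 ± 0.73 (adjusted p = 0.042) and Lgr5 at -3.93 ± 0.75 (adjusted p = 0.00807), 2 of 10 genes, where edgeR called 15.6% of genes, 8.10% higher and 7.51% lower. Scaled by library totals, 85.4% of the called genes were higher in place of 51.9%, with a median of all genes of 0.50 in place of -0.07. For Lgr5 the contrast was 1.47 in WT and -2.46 in dnTGFB. Lgr5 was called under the omission of any 1 library, with an estimate that rests on 2 to 42 reads per library. The call of Slc1a2 was lost without WT library 2 or 3, any WT secretin library or any dnTGFB secretin library (adjusted p of 0.0786 to 0.1 in edgeR), and with the replicate block (adjusted p = 0.0685). Glul at 0.79 ± 0.25 (adjusted p = 0.0534) and Gls2 at -1.66 ± 0.56 (adjusted p = 0.065) missed the threshold. Without male WT library 1 and male dnTGFB library 3 all 10 genes were called, Glul higher at 0.68 ± 0.05 and 9 lower, where 48.9% of genes were called, 25.1% higher and 23.8% lower.

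In females the 10 genes gave no call in any of the 3 comparisons, and nor did any of the 19882 genes tested (0%). In WT secretin against WT the estimates were large and negative for all 6 periportal genes, from -1.70 ± 0.43 for Sds to -3.46 ± 0.94 for Gls2. The smallest adjusted p was 0.14 in edgeR, although 7 of 10 genes, the periportal ones and Slc1a2, were at an unadjusted p under 0.05, as were 5263 of all genes. DESeq2 called these 7 lower, with 13.0% of genes called. In CPM the same 7 genes were lower in every WT secretin library than in every WT library, as were 6.75% of the genes tested. Without female WT secretin library 1, which leaves the 2 libraries rich in heart muscle genes, edgeR called the same 7 lower with 25.7% of genes called. Without those 2 libraries, library 1 alone stood for the group, assumed to vary like the others, and Ass1 stood at -2.56 ± 1.22 and Gls2 at -2.69 ± 1.24 (adjusted p = 0.946 for both). The core hepatocyte genes had a median of -3.06 in this comparison, the other periportal genes of -2.82 and the other pericentral genes of -1.33, against 0.11 over all genes, and the part of hepatocyte content was not tested. Rspo3 and Wnt9b lay at 240 and 104 CPM in female WT secretin library 1, above 69.1 to 86.0 and 8.64 to 20.4 in female WT, and at 8.80 to 19.5 and 4.19 to 8.93 in libraries 2 and 3.

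In female dnTGFB against WT the periportal estimates ran from -0.99 ± 0.43 for Sds to -1.94 ± 0.88 for Gls2, and Glul stood at -0.03 ± 0.24. Of the 10 genes 1, Sds, was at an unadjusted p under 0.05, with 3859 of all genes, and DESeq2 called 0 of the 10 and 734 genes. Ass1, Hal, Sds and Gls2 were lower in CPM in every dnTGFB library than in every WT library, as were 8.58% of the genes tested. Female dnTGFB library 3, without excess heart muscle genes, held Ass1 at 295 CPM, close to the lowest WT library at 329, and without libraries 1 and 2 the Ass1 estimate was -0.68 ± 1.07. In dnTGFB secretin against dnTGFB the estimates were between -0.79 ± 0.71 for Lgr5 and 1.21 ± 0.89 for Hal. There 0 of the 10 genes and 3626 of all genes were at an unadjusted p under 0.05, and DESeq2 called 0 of the 10 and 411 genes.

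The female interaction was positive for 5 of the 10 genes, all periportal, where 18.0% of genes were called, 4.03% higher and 13.9% lower. Gls2 stood at 4.66 ± 1.26 (adjusted p = 0.0415), Ass1 at 4.47 ± 1.27 (adjusted p = 0.0436), Hal at 4.17 ± 1.29 (adjusted p = 0.0492), Pck1 at 3.51 ± 1.09 (adjusted p = 0.0493) and Sds at 2.55 ± 0.61 (adjusted p = 0.0408) in edgeR. Cps1 was just outside, at 3.62 ± 1.13 (adjusted p = 0.0503). Scaled by library totals, or with the replicate block, edgeR called 0 of the 10 and 0 of the 19882 genes, with Gls2 at 4.56 ± 1.42 (adjusted p = 0.0786) and 4.62 ± 1.40 (adjusted p = 0.0996), while DESeq2 called the 6 periportal genes and Slc1a2. Of the 4 libraries rich in heart muscle genes, 2 are of WT secretin and 2 of untreated dnTGFB, the groups that this contrast subtracts. Leaving out any 1 library gave 0 calls, except 8 without WT secretin library 1 and 7 without dnTGFB library 3. Without the 4 heart-rich libraries 0 of the 10 genes and 0% of 20311 genes were called, with 53 of all genes at an unadjusted p under 0.05, and Gls2 stood at 2.82 ± 1.61 with 1 library each left in WT secretin and dnTGFB.

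Differences between males and females of the same contrast were tested over all 24 libraries. For dnTGFB against WT, Slc1a2 differed by 3.54 ± 0.77 (adjusted p = 0.00793 in edgeR), 1 of 10 genes, where 6.86% of 20222 genes were called, 4.45% higher and 2.42% lower in the male contrast. For dnTGFB secretin against dnTGFB, Gls2 differed by -3.59 ± 1.01 (adjusted p = 0.0371) and Slc1a2 by -2.82 ± 0.76 (adjusted p = 0.033), where 7.75% were called, 2.44% higher and 5.32% lower. For WT secretin against WT no gene was called (0%), with 4537 genes at an unadjusted p under 0.05 and, of the 10, Ass1, Cps1, Gls2, Glul and Lgr5 among them. The Slc1a2 values include male dnTGFB library 3, at 153 CPM; without it and male WT library 1, male dnTGFB exceeded WT in Slc1a2 by 2.52 ± 0.17.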

How the data were processed

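Poly(A) RNA of 24 libraries was sequenced, from 500 ng of total RNA each. The authors deposited raw counts per gene for 49315 genes in each library, as whole numbers. The labels name no aligner or counter and do not say whether strand was used, and the counts of Tgfbr2 do not separate the transgene from the endogenous gene. Libraries were grouped by title. Levels are CPM of the library total, and CPM per kb uses the exon length in the deposited tables. The 2 sexes were fitted apart, with 4 groups in each fit, in edgeR 4.0.16 (R 4.3.3) with its default filter on low counts, TMM scaling and the quasi-likelihood test, at a Benjamini-Hochberg adjusted p under 0.05 over all genes tested. All 10 genes passed the filter. Differences between sexes were fitted over all libraries. Alternatives were DESeq2 1.42.0, its size factors or library totals in edgeR, no filter, a replicate block, only the groups compared, and libraries left out. The fit was tested on simulated data with the same spread for all genes and no library unlike its group. That test therefore does not cover the libraries placed apart here. Of each gene list, at most 4 genes were named, the 2 with the highest mean CPM and the 2 with the lowest adjusted p, and others are said to be named for their values. A result for 1 listed gene is not reported here. The zonation genes and the lists were chosen with earlier results of these data known. Totals of 1429218 to 104003184 counts set the precision of single libraries.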

Additional observations from a re-analysis of the deposited data

Results flagged for a closer look

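The values below were picked out because a test of the difference between contrasts itself, in edgeR with adjustment over all genes, passed the threshold. Between the secretin contrasts of male dnTGFB and male WT mice, the difference was -2.50 for Slc1a2 and -3.93 for Lgr5 on the log2 scale. There 15.6% of all genes tested were called. Slc1a2 lost its call in 8 of 12 single omissions and with the replicate block, and Lgr5 rests on 2 to 42 reads per library. Between the same contrasts in females, the difference was 4.47 for Ass1, 3.51 for Pck1, 4.17 for Hal, 2.55 for Sds and 4.66 for Gls2, where 18.0% of all genes tested were called. These female values lost their calls without the 4 libraries rich in heart muscle genes. They also lost them with library totals, with the replicate block and, for each gene, in 10 of 12 single omissions. Between males and females, the dnTGFB contrast with WT differed by 3.54 for Slc1a2, where 6.86% of all genes tested were called. The dnTGFB secretin contrast with dnTGFB differed between males and females by -3.59 for Gls2 and -2.82 for Slc1a2, where 7.75% of all genes tested were called. Male dnTGFB library 3, with 153 CPM of Slc1a2, enters all 3 values of that gene.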

How the results depend on the processing

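Across the log2 fold changes of the 10 genes, alternatives other than single omissions kept direction and call in 462 cases, gained a call in 40, lost it in 43 and turned the sign in 31. Of the 10 genes, male dnTGFB against WT called 2, and 1 with library totals or no filter, 9 without the libraries placed apart and 0 with only the groups compared (1 to 7 with 1 library left out). Male WT secretin against WT called 1, and 0 with library totals or no filter, 7 without the libraries placed apart, and 2 with only the groups compared or DESeq2 (0 to 0). Male dnTGFB secretin against dnTGFB called 6, and 1 with only the groups compared (2 to 8). The male interaction called 2, and 1 with no filter, 10 without the libraries placed apart and 4 with DESeq2 (1 to 5). Female WT secretin against WT called 0, and 7 with DESeq2 (0 to 7), while female dnTGFB against WT and dnTGFB secretin against dnTGFB ranged from 0 to 0. The female interaction called 5, and 3 with DESeq2 size factors, 2 with no filter, and 0 with library totals, without the libraries placed apart or without libraries nearest to another group (0 to 8). With the replicate number as a block, the male counts were 1 for dnTGFB against WT, 0 for WT secretin and 5 for dnTGFB secretin. The interaction then called 1 in males and 0 in females, and Lgr5 in female dnTGFB turned to 0.04. Same-numbered libraries deviated together at correlations of -0.12 to 0.18 in males and -0.73 to 0.78 in females. Libraries with different numbers did so at -0.24 to 0.2 and -0.84 to 0.84. With 3 libraries per group these ranges cannot decide whether the numbers mark a pairing. As a difference of mean log2 CPM, the ratio was 0.70 in male WT, 0.22 in male WT secretin, 0.66 in male dnTGFB, which then lay below male WT, 0.09 in male dnTGFB secretin, 1.40 in female WT, -1.19 in female WT secretin, -0.26 in female dnTGFB and 0.80 in female dnTGFB secretin. Without Glul it was 1.58, 1.37, 1.72, 0.84, 2.11, -1.36, -0.17 and 1.33 in the same order. With 1 library left out the log2 ratio lay at -1.43 to -0.58 in male WT, -0.72 to -0.67 in male WT secretin, -0.43 to 0.78 in male dnTGFB, -1.53 to -1.51 in male dnTGFB secretin, 0.02 to 0.43 in female WT, -3.59 to -2.57 in female WT secretin, -2.41 to -1.28 in female dnTGFB and -1.39 to -0.14 in female dnTGFB secretin. Signs turned without the libraries placed apart: in male WT secretin for Cps1 (0.22), Pck1 (0.68), Hal (0.03), Sds (0.05) and Slc1a2 (0.42), in male dnTGFB secretin for Glul (-0.08), in female dnTGFB for Glul (0.11), Oat (-0.19), Slc1a2 (0.07) and Lgr5 (0.08), in female WT secretin for Oat (-0.74) and Lgr5 (0.09), in female dnTGFB secretin for Cps1 (-0.26), Pck1 (-0.09), Glul (-0.08), Oat (0.05) and Slc1a2 (-0.59), and in the female interaction for Glul (-4.4e-05) and Oat (0.79). With library totals they turned for Oat (-0.02) in male dnTGFB, Slc1a2 (0.16) in male WT secretin, Oat (0.34) in male dnTGFB secretin, Sds (0.32) and Oat (0.43) in the male and Lgr5 (0.15) in the female interaction. They also turned for Glul with DESeq2 in male dnTGFB secretin (-0.0033) and with no filter in female dnTGFB (0.05) and dnTGFB secretin (-0.0029), and without libraries nearest to another group for Cps1 in female dnTGFB secretin (-0.27) and Lgr5 in the female interaction (0.02). With 1 library left out, signs turned within these ranges: in male WT secretin -1.09 to 0.22 for Cps1, -0.92 to 0.68 for Pck1, -1.54 to 0.03 for Hal, -1.72 to 0.05 for Sds and -0.42 to 0.41 for Slc1a2; in male dnTGFB secretin -0.07 to 0.13 for Glul; in the male interaction -1.65 to 0.13 for Sds; in female dnTGFB -0.11 to 0.04 for Glul and -0.70 to 1.48 for Lgr5; in female WT secretin -0.93 to 1.27 for Lgr5. In female dnTGFB secretin the ranges were -0.20 to 2.23 for Ass1, -0.64 to 1.32 for Cps1, -0.27 to 1.83 for Pck1, -0.07 to 2.39 for Gls2, -0.02 to 0.13 for Glul and -0.09 to 0.89 for Slc1a2, and in the female interaction -2.08 to 0.14 for Lgr5. The cause of these changes was not tested. Depth limits Lgr5, at 1 to 42 reads per library.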
